A study of Homo sapiens with 10 samples.

Results

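The 41 genes described here encode the machinery that carries a cell through G2 and mitosis: cyclins and CDK1, mitotic kinases, the spindle checkpoint, and proteins of the centromere, the spindle and cytokinesis. They were chosen by name, and each was read from the probe sets whose single gene symbol in the platform annotation is one of the 41, which gave 41 of 19775 genes and 85 of 54675 probe sets. MiaPaCa-2 is a human pancreatic carcinoma cell line. Its RNA was measured on 10 Affymetrix U133 Plus 2.0 arrays while the cells were exposed to medium from pancreatic stellate cells, the fibroblast-like cells of the pancreas, which had themselves been primed with pooled supernatant of 8 tumour cell lines. There were 8 treated arrays, harvested after 1, 2, 3, 4, 5, 6, 7 and 24 h of exposure, and 2 arrays of the same line described as controls, at 0 h and 24 h. The titles of the controls repeat the wording of the treated arrays, and what medium they received is not stated. The cells of both groups were grown to about 70% confluence and carry no named genetic change. Each time point was a single array. Separate cultures are not stated anywhere, so the p-values cover the spread among these 10 arrays and nothing wider. No control array falls between 1 and 7 h, so exposure and time in culture cannot be told apart over those hours.

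Cyclins A and B activate CDK1, which starts mitosis once CDC25 phosphatases remove its inhibitory phosphates. The spindle checkpoint proteins MAD2L1, BUB1B and BUB3 hold back CDC20, the activator of the anaphase-promoting complex (APC/C), until every chromosome is attached, and the complex then marks cyclin B and securin for destruction. Most of these genes are transcribed late in the cell cycle under FOXM1, B-MYB and the MuvB complex, so their RNA in a cell population tracks how many cells are in G2 and mitosis. On arrays of whole cultures, fewer cells in that phase and less RNA per cell cannot be told apart.

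All 41 genes were well measured: every one had a mean above log2 5.79, the 40th percentile of all genes, which was the filter for testing and left 11865 genes. The array medians lay between log2 5.49 and 5.61. Values are log2 intensities, 1 unit being a 2-fold difference, and levels are compared only within a gene. KRT8, KRT18 and VIM, listed for MiaPaCa-2 but not shown here to be specific to it, were above the filter. CDH1 and EPCAM, markers of epithelial adhesion, were below it. The leukocyte genes PTPRC and CD3E were below it and CD14 above it, with a summed level of the 3 of 14.8 to 16.6 on treated arrays and 16.7 on both controls. Of 9 stellate cell and fibroblast markers 4 were above the filter (COL1A1, COL1A2, COL3A1 and ACTA2), with summed log2 levels of 54.8 to 57.3 on treated arrays and 56.4 to 56.7 on control arrays, and their part in the results was not tested.

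The genes shared their 2 highest arrays with 1 exception. In 40 of the 41 the treated 24 h array was the highest of the 10 and the 0 h control the second, an order shown by 5.03% of all genes tested (9.72% had the treated 24 h array highest). The 0 h control lay above all 7 arrays of 1 to 7 h in 40 genes (26.6% of all genes), and so did the treated 24 h array (18.7%). In all 3 counts the exception was CDC25B, a phosphatase that activates CDK1 at the entry to mitosis. The 24 h control did not share the level of the 0 h control: all 41 genes were lower in it, where 54.7% of all genes were. Comparisons with the controls are therefore given for both together and for each.

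**Figure D1:**
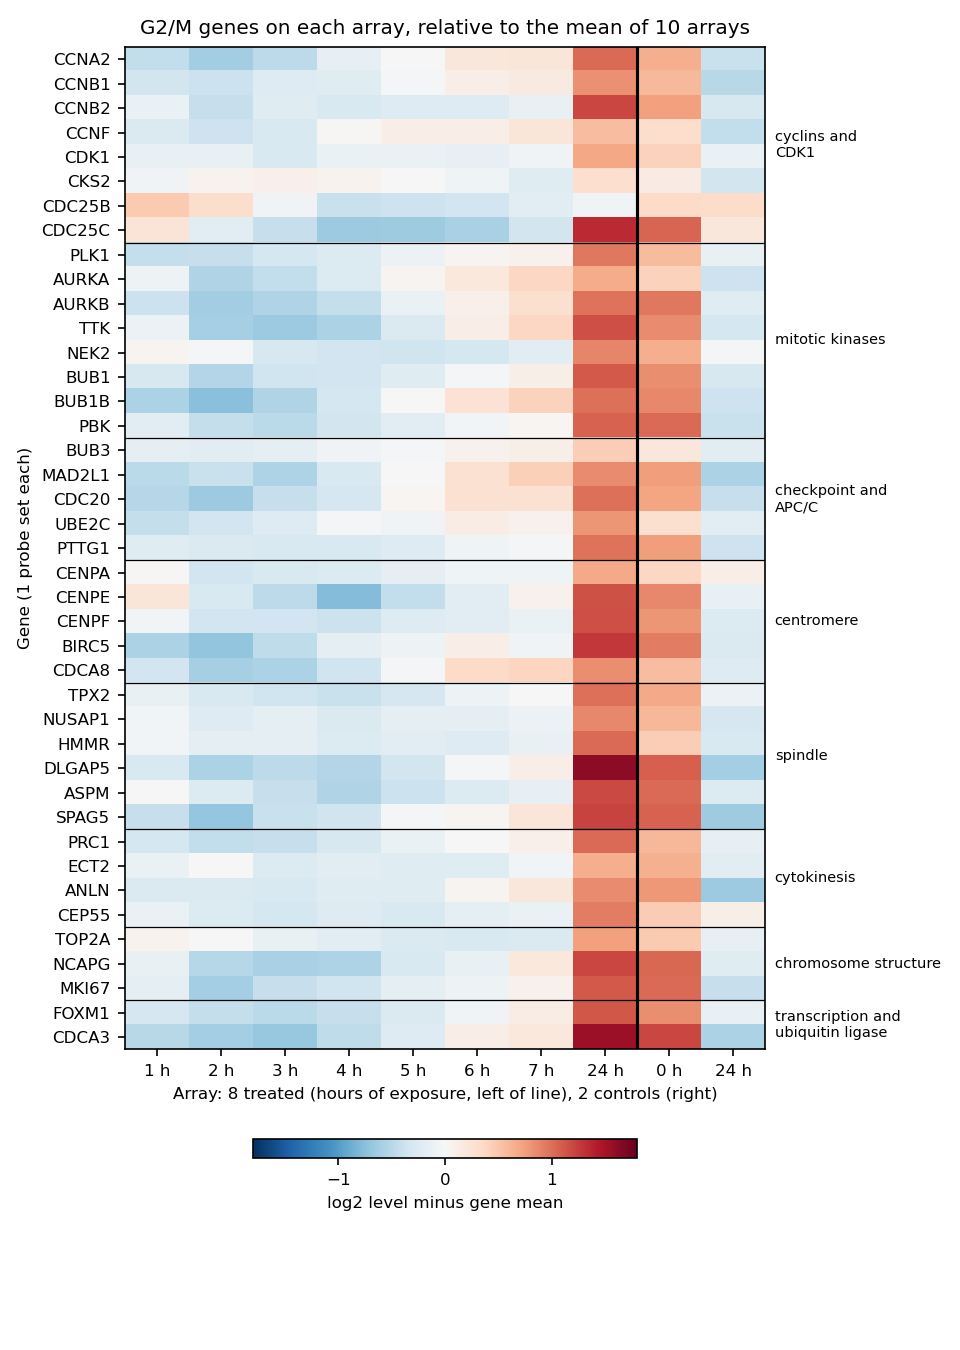
Log2 level of each of the 41 genes (rows, grouped by role) minus that gene's mean over the 10 arrays, by colour, on the 8 treated arrays (left of the line, by hours of exposure) and the 2 controls (right). The treated 24 h array and the 0 h control are the highest and the second highest column in 40 of 41 rows, some other arrays also lie above the gene's mean, and CDC25B shows its highest levels at 1 h and in both controls.

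Short stretches of promoter are shown because the genes moved together over the arrays and because the cell cycle homology region, whose core is TTTGAA, is the site through which MuvB complexes bind late cell cycle genes. Windows of 250 bases before the gene start were taken from RefSeq (GRCh38.p14) for 33 of the 41 genes, matched by symbol, and the first window was used for the 6 genes with several. TTTGAA was present on either strand in 19 of 33, against 8.30% of the windows of 9669 genes tested and 1 of 36 G1/S and replication genes. CCAAT, the core of the NF-Y site, was in 26 of 33, against 34.9% of the genes tested and 20 of 36 G1/S genes. Both stood in 16 of 33, against 3.43%. Within 100 bases of the start TTTGAA was in 13 of 33, against 2.27%. The related CTTGAA was in 2 of 33 (6.17% of the genes tested) and the forkhead core TAAACA in 3 (5.70%). TTGGCG and TTCCCG, forms of the E2F site, were in 7 and 11 of 33, against 11.4% and 20.8% of the genes tested, and in 14 and 18 of 36 G1/S genes. GGCGG, which can share bases with TTGGCG, was in 30 of 33 and in 83.3% of the genes tested. The 100 bases before the start follow, 5′ to 3′ in the direction of the gene, for 6 genes that rose from 1 to 7 h, for TOP2A, which fell, and for NEK2 and CEP55, which were below the controls at 4 to 7 h. They were picked after the values were seen, from genes with 1 window. BUB1B, CDC20, PLK1 and CCNF had the smallest slope p among rising genes with TTTGAA in these 100 bases. CCNA2 and MAD2L1 had the smallest among rising genes without TTTGAA in 250 bases. The choice thus set which of these 6 carry TTTGAA. TOP2A, NEK2 and CEP55 were picked by the tests without regard to the motif. Capitals mark the cores TTTGAA or CTTGAA and the CCAAT box, each on either strand.
BUB1B (chr15:40160969-40161068, plus strand): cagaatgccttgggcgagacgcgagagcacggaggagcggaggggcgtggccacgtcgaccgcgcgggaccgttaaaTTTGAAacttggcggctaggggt
CDC20 (chr1:43358881-43358980, plus strand): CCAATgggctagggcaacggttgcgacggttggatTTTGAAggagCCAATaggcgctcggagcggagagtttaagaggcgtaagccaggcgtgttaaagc
PLK1 (chr16:23678789-23678888, plus strand): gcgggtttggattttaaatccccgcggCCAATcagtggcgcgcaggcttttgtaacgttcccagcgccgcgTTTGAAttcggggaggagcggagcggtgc
CCNF (chr16:2429347-2429446, plus strand): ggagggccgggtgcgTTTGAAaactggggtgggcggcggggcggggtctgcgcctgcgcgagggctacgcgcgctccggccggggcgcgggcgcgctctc
CCNA2 (chr4:121823884-121823983, minus strand): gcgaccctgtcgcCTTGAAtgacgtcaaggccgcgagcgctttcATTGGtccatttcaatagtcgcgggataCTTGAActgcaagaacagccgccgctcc
MAD2L1 (chr4:120066849-120066948, minus strand): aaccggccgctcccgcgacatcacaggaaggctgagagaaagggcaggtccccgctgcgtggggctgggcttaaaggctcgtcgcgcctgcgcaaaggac
TOP2A (chr17:40417897-40417996, minus strand): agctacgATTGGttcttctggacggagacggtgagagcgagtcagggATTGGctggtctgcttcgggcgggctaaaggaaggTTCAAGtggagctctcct
NEK2 (chr1:211675622-211675721, minus strand): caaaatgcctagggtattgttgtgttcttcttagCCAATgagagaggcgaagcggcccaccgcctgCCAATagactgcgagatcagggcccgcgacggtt
CEP55 (chr10:93496512-93496611, plus strand): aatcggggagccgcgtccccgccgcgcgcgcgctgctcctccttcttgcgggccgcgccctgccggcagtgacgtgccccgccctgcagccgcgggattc
The TTTGAA of BUB1B began 23 bases before the start, that of PLK1 29 and that of CDC20 65, while MAD2L1 and NEK2 had none in their 250 bases. TOP2A and CEP55 also held TTTGAA, but outside the printed bases. It began 194 and 151 bases before the start in TOP2A and 116 in CEP55. CCNA2 carried CTTGAA in its place, 28 and 87 bases before the start. Of the 19 genes that held TTTGAA 7 rose over 1 to 7 h and 1 fell, and of the 14 that did not 7 rose and 1 fell, a difference that was not tested. A match is a description of letters, not a bound site.

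Within the exposed cells, the change from 1 to 7 h was a rise in many of these genes. Fitted as a straight line on hour over the 7 treated arrays, 18 of 41 genes rose and 2 fell (limma, Benjamini-Hochberg adjusted p under 0.05 over all genes tested), where 16.6% of all genes rose and 10.1% fell. The median slope was 0.07 log2 units per hour, against 0.005 over all genes, and 31 of the 41 slopes were above 0. In 17 genes the lowest of the 7 arrays was the 2 h array, in 10 it was the 3 h array and in 9 the 4 h array, and 35.8% of all genes had their lowest value at 2 h. Over the genes tested, that array had a median difference of -0.12 from the 0 h control. Its values were compressed: over all probe sets its upper quartile, 7.5, was the lowest of the 10 arrays and its median, 5.61, the highest. Without the 2 h array 15 genes rose and 0 fell. With the 0 h control entered as hour 0 only the falls of CDC25B and TOP2A passed, and 8 of the 18 rising slopes changed sign. The gap between 3′ and 5′ probe sets of ACTB, a sign of RNA integrity, was 0.65, 0.59, 0.44, 0.43, 0.39, 0.36 and 0.50 from 1 to 7 h, 0.33 at 24 h of exposure, and 0.29 in both controls, while that of GAPDH stayed between -0.0086 and 0.10; its part in the slopes was not tested.

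**Figure D2:**
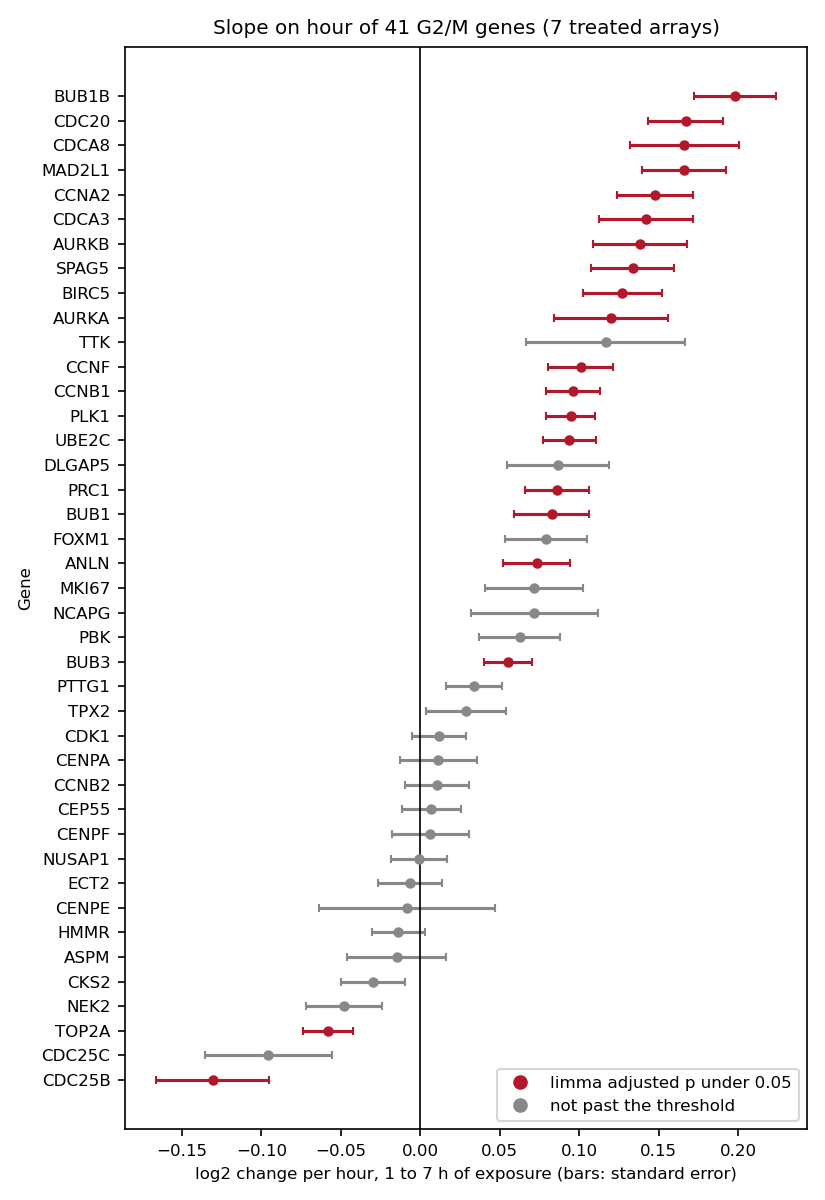
Slope of log2 level on hour for each of the 41 genes, fitted over the 7 treated arrays of 1 to 7 h, with bars for the standard error. The 18 genes that rose run between BUB3 at 0.055 and BUB1B at 0.198 per hour, and CDC25B and TOP2A are the 2 that fell.

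Of the 5 checkpoint and APC/C genes 4 rose and 0 fell (16.6% and 10.1% of all genes). BUB1B, the kinase-like BubR1 subunit of the checkpoint complex, is grouped with the kinases but had the steepest slope of the 41, 0.198 ± 0.026 log2 units per hour (SE, n = 7 arrays, limma adjusted p = 0.00198). It measured 8.89, 8.71, 8.92, 9.15, 9.47, 9.73 and 9.88 at 1 to 7 h and 10.46 at 24 h of exposure, against 10.33 in the 0 h control and 9.08 in the 24 h control. It thus started below both controls and by 7 h stood between them. CDC20, the APC/C activator restrained by that complex, measured 9.96, 9.82, 10.07, 10.18, 10.51, 10.76 and 10.75 at 1 to 7 h and 11.47 at 24 h, against 11.19 and 10.07 in the 0 h and 24 h controls (slope 0.167 ± 0.023, adjusted p = 0.00252). MAD2L1, the checkpoint protein that captures CDC20, measured 9.90, 9.99, 9.84, 10.13, 10.39, 10.67 and 10.82 at 1 to 7 h and 11.25 at 24 h, against 11.14 and 9.82 in the controls (slope 0.166 ± 0.026, adjusted p = 0.00368). UBE2C, the ubiquitin-conjugating enzyme of the APC/C, measured 10.91, 10.99, 11.11, 11.30, 11.27, 11.47 and 11.42 at 1 to 7 h and 12.13 at 24 h, against 11.63 and 11.14 in the controls (slope 0.094 ± 0.017, adjusted p = 0.00571). In all 4 genes every array of 4 to 7 h lay above every array of 1 to 3 h. BUB3, which docks the checkpoint kinases at kinetochores, also rose, by 0.055 ± 0.015 per hour (adjusted p = 0.028), but not without the 3, 5, 6 or 7 h array (0.0577, 0.0539, 0.104 and 0.0939). PTTG1, or securin, which the APC/C destroys at anaphase, had a slope of 0.034 ± 0.018 (adjusted p = 0.19).

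Among the cyclins and their partners the course was divided, with 3 of 8 genes rising and 1 falling (16.6% and 10.1% of all genes). CCNA2, cyclin A2, which acts from S phase into early mitosis, measured 8.77, 8.59, 8.74, 9.08, 9.22, 9.43 and 9.43 at 1 to 7 h and 10.24 at 24 h, against 9.87 and 8.81 in the 0 h and 24 h controls (slope 0.148 ± 0.024, adjusted p = 0.00397). CCNB1, cyclin B1, the main partner of CDK1, measured 11.37, 11.32, 11.47, 11.48, 11.67, 11.83 and 11.86 at 1 to 7 h and 12.52 at 24 h, against 12.28 and 11.20 in the controls (slope 0.096 ± 0.017, adjusted p = 0.00564). CCNF, an F-box protein that marks proteins for degradation in G2, rose by 0.101 ± 0.020 per hour (adjusted p = 0.00886). Both genes were higher on every array of 4 to 7 h than on any of 1 to 3 h. CCNB2, cyclin B2, measured 10.38, 10.09, 10.28, 10.22, 10.27, 10.26 and 10.36 at 1 to 7 h and 11.70 at 24 h, against 11.24 and 10.21 in the controls (slope 0.010 ± 0.020, adjusted p = 0.736). Its early arrays overlapped one another and the 24 h control. CDK1 itself lay between 9.89 and 10.10 over the same hours on its main probe set (adjusted p = 0.641). Its next brightest probe sets went from 9.26 and 9.16 at 3 h to 9.81 and 9.73 at 7 h. Tested singly, their slopes of 0.079 and 0.074 did not pass (limma adjusted p of 0.0787 and 0.132). CKS2, a small CDK-binding subunit, lay between 12.39 and 12.71 and was the only gene of the 41 lowest at 7 h (slope -0.030 ± 0.020, adjusted p = 0.307).

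Of the CDC25 phosphatases among the 41, CDC25B fell and CDC25C did not pass on its main probe set. CDC25B measured 11.26, 11.10, 10.73, 10.38, 10.42, 10.44 and 10.58 at 1 to 7 h and 10.72 at 24 h, against 11.13 and 11.12 in the 0 h and 24 h controls. It was near the controls for 2 h, dropped by 4 h and had not regained their level at 24 h. Its slope was -0.131 ± 0.035 (adjusted p = 0.0276), and it was the 1 gene of the 41 that passed in hours 4 to 7 against hours 1 to 3, at -0.57 ± 0.12 (SE, 4 and 3 arrays, limma adjusted p = 0.0166). The slope lost its call when the 1, 2 or 6 h array was left out (adjusted p of 0.145, 0.0771 and 0.0769). The window difference lost it when the 1, 2, 5 or 6 h array was left out (adjusted p between 0.00268 and 0.0824 over all its alternatives). CDC25C, which activates CDK1 through a loop with PLK1, measured 8.29, 7.86, 7.64, 7.40, 7.42, 7.48 and 7.72 at 1 to 7 h and 9.41 at 24 h, against 9.11 and 8.26 in the controls. Its lowest hours were also 4 to 6, but unlike CDC25B it was highest of all at 24 h of exposure. Its slope did not pass (-0.096 ± 0.040, adjusted p = 0.11). With probe sets tested singly, its second brightest passed as falling (slope -0.118, limma adjusted p = 0.0281). The main one and a dim one did not (-0.096 and -0.078, adjusted p of 0.152 and 0.0673), so the call depends on the probe set.

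**Figure D3:**
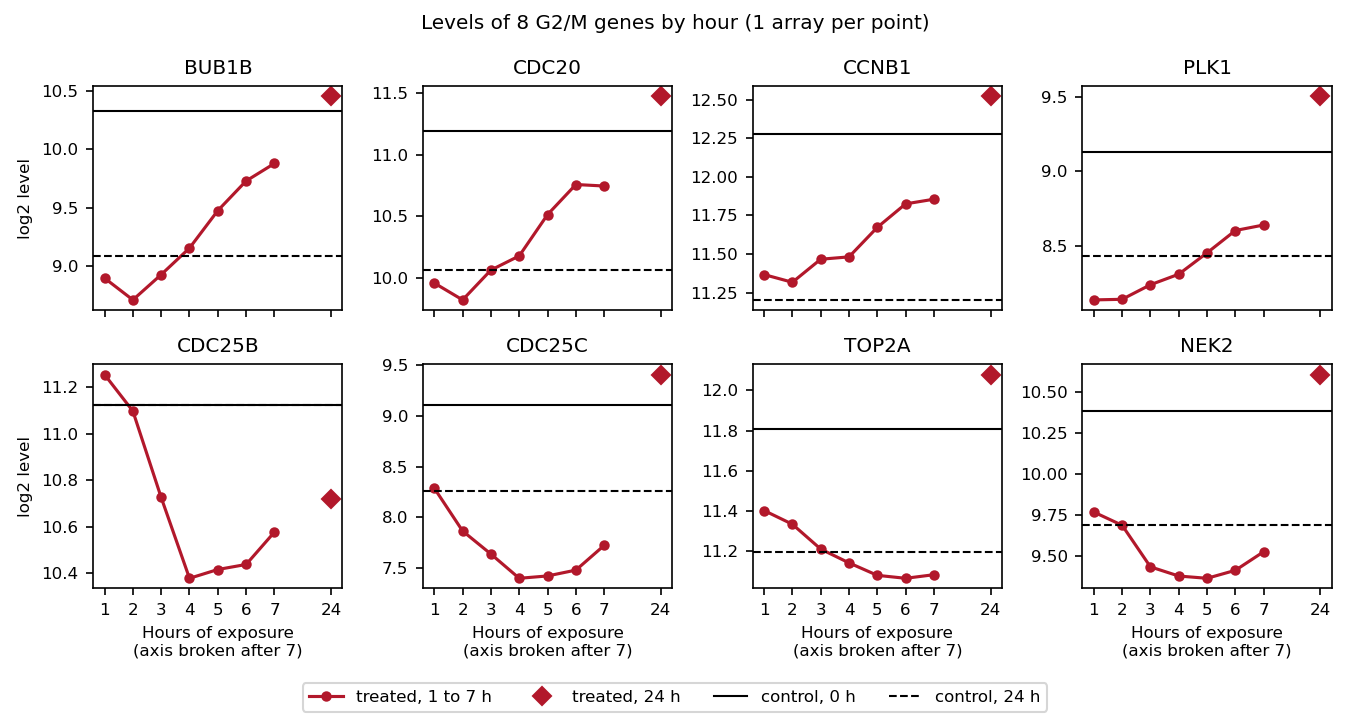
Log2 level of 8 genes by hour of exposure (points joined for 1 to 7 h, diamond at 24 h, axis broken after 7), with the 0 h control as a solid and the 24 h control as a dashed line, which coincide for CDC25B. The upper 4 genes are higher at 4 to 7 h than at 1 to 3 h, the lower 4 are lowest between 4 and 6 h, and all but CDC25B are highest at 24 h.

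Of the 8 mitotic kinases 5 rose and 0 fell (16.6% and 10.1% of all genes). PLK1, the polo kinase of mitotic entry and spindle assembly, measured 8.14, 8.14, 8.24, 8.31, 8.45, 8.60 and 8.64 at 1 to 7 h and 9.51 at 24 h, against 9.13 and 8.43 in the 0 h and 24 h controls (slope 0.095 ± 0.015, adjusted p = 0.00421). AURKB, the kinase that corrects chromosome attachment, measured 8.71, 8.47, 8.55, 8.65, 8.97, 9.18 and 9.37 at 1 to 7 h and 10.07 at 24 h, against 10.03 and 8.86 in the controls (slope 0.138 ± 0.030, adjusted p = 0.0115). Both genes were below the 24 h control in the first 4 h and above it from 5 h on. AURKA, the centrosomal aurora kinase, rose by 0.120 ± 0.036 (adjusted p = 0.0389) and BUB1, a checkpoint kinase of the kinetochore, by 0.083 ± 0.024 (adjusted p = 0.0334), and neither passed under cyclic loess scaling, at 0.0502 and 0.0644. TTK, the kinase that starts the checkpoint signal, had a slope of 0.117 ± 0.050 that did not pass (adjusted p = 0.118), nor did that of PBK (0.063 ± 0.025, adjusted p = 0.103). NEK2, which separates the centrosomes, was flat to declining, with 9.77, 9.69, 9.43, 9.38, 9.36, 9.41 and 9.52 at 1 to 7 h and 10.61 at 24 h, against 10.38 and 9.69 in the controls (slope -0.048 ± 0.024, adjusted p = 0.167).

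At the centromere 2 of 5 genes rose (16.6% of all genes), both of them subunits of the chromosomal passenger complex, which carries AURKB. BIRC5, or survivin, measured 9.06, 8.92, 9.18, 9.45, 9.54, 9.76 and 9.57 at 1 to 7 h and 10.90 at 24 h, against 10.56 and 9.38 in the 0 h and 24 h controls (slope 0.127 ± 0.025, adjusted p = 0.00808). CDCA8, or borealin, measured 9.38, 9.13, 9.16, 9.37, 9.71, 10.07 and 10.12 at 1 to 7 h and 10.56 at 24 h, against 10.28 and 9.49 in the controls (slope 0.166 ± 0.034, adjusted p = 0.01). CENPA, the histone variant that marks centromeres, measured 8.46, 8.10, 8.17, 8.20, 8.28, 8.36 and 8.36 at 1 to 7 h and 9.13 at 24 h, against 8.82 and 8.56 in the controls, and all 7 early arrays lay below both controls. Its slope (0.011 ± 0.024, adjusted p = 0.759) and those of the kinetochore proteins CENPE and CENPF (adjusted p of 0.925 and 0.872) did not pass.

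Of the 6 spindle genes 1 rose, near the share of all genes, 16.6%. SPAG5, or astrin, which stabilises attachments at the spindle pole, measured 8.20, 7.91, 8.21, 8.24, 8.58, 8.66 and 8.82 at 1 to 7 h and 9.82 at 24 h, against 9.66 and 7.97 in the 0 h and 24 h controls (slope 0.133 ± 0.026, adjusted p = 0.00795). DLGAP5, a kinetochore fibre protein, measured 9.30, 9.01, 9.10, 9.05, 9.25, 9.55 and 9.70 at 1 to 7 h and 11.19 at 24 h, against 10.65 and 8.97 in the controls, without passing (slope 0.087 ± 0.032, adjusted p = 0.0773). TPX2, the activator of AURKA on the spindle, measured 10.79, 10.65, 10.56, 10.52, 10.62, 10.82 and 10.91 at 1 to 7 h and 11.91 at 24 h, against 11.60 and 10.82 in the controls (adjusted p = 0.431). SPAG5 was lowest at 2 h, DLGAP5 at 2 h and TPX2 at 4 h, and all 3 were highest at 24 h of exposure. HMMR, a microtubule-binding hyaluronan receptor, measured 11.14, 11.02, 11.02, 10.94, 10.99, 10.96 and 11.06 at 1 to 7 h and 12.21 at 24 h, against 11.63 and 10.91 in the controls (adjusted p = 0.57). ASPM, which focuses spindle poles, measured 9.92, 9.68, 9.50, 9.38, 9.54, 9.68 and 9.77 at 1 to 7 h and 11.11 at 24 h, against 10.94 and 9.68 in the controls (adjusted p = 0.755). Both lay near the 24 h control from 1 to 7 h and above the 0 h control at 24 h of exposure. NUSAP1, which bundles spindle microtubules, stayed between 10.61 and 10.82 from 1 to 7 h (adjusted p = 0.976).

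PRC1 and ANLN, 2 of the 4 cytokinesis genes, rose (16.6% of all genes). PRC1, which bundles the microtubules of the central spindle, measured 9.62, 9.49, 9.52, 9.64, 9.81, 9.93 and 10.03 at 1 to 7 h and 10.95 at 24 h, against 10.53 and 9.78 in the 0 h and 24 h controls (slope 0.086 ± 0.020, adjusted p = 0.0161). ANLN, the scaffold of the contractile ring, measured 10.56, 10.57, 10.55, 10.60, 10.60, 10.87 and 11.03 at 1 to 7 h and 11.68 at 24 h, against 11.61 and 10.17 in the controls (slope 0.073 ± 0.021, adjusted p = 0.0352, and 0.0924 under cyclic loess scaling). On this probe set the increase of ANLN fell in the last 2 of the 7 h. Its other probe set measured 9.74, 9.72, 9.89, 10.01, 10.11, 10.33 and 10.33 at 1 to 7 h. Tested singly, that probe set passed (slope 0.114, limma adjusted p = 0.00688) and the main one did not (adjusted p = 0.0656). CEP55, which recruits the abscission machinery to the midbody, measured 9.67, 9.55, 9.47, 9.56, 9.51, 9.63 and 9.67 at 1 to 7 h and 10.70 at 24 h, against 10.24 and 9.89 in the controls (slope 0.007 ± 0.019, adjusted p = 0.815). ECT2, the exchange factor that switches on RhoA at the cell equator, lay between 10.51 and 10.74 (adjusted p = 0.836).

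TOP2A, the topoisomerase that untangles sister chromatids, fell on its main probe set by 0.058 ± 0.016 per hour (adjusted p = 0.0279). It measured 11.40, 11.33, 11.21, 11.14, 11.08, 11.07 and 11.08 at 1 to 7 h and 12.08 at 24 h, against 11.81 and 11.19 in the 0 h and 24 h controls. Its second bright probe set had a slope of -0.0041, and the mean over its probe sets 0.000114 (adjusted p = 0.997), so the fall rests on 1 probe set. NCAPG, a condensin subunit, measured 8.79, 8.42, 8.34, 8.37, 8.65, 8.78 and 9.11 at 1 to 7 h and 10.12 at 24 h, against 9.96 and 8.70 in the controls (adjusted p = 0.217). MKI67, the proliferation marker that coats mitotic chromosomes, measured 8.66, 8.21, 8.40, 8.45, 8.66, 8.73 and 8.90 at 1 to 7 h and 9.93 at 24 h, against 9.84 and 8.40 in the controls (adjusted p = 0.119). Neither slope passed on the main probe set, though both genes were at their highest of the 7 h at 7 h. With probe sets tested singly, MKI67 passed on those with slopes of 0.133 and 0.090 (limma adjusted p of 0.0318 and 0.0423). It did not pass on those at 0.072 and 0.055 (adjusted p of 0.168 and 0.3).

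CDCA3, an F-box-like protein that triggers destruction of the CDK1 inhibitor WEE1, measured 8.83, 8.71, 8.64, 8.86, 9.10, 9.44 and 9.52 at 1 to 7 h and 10.87 at 24 h, against 10.52 and 8.76 in the 0 h and 24 h controls (slope 0.142 ± 0.029, adjusted p = 0.01). FOXM1, the transcription factor of many of these genes, measured 8.82, 8.68, 8.64, 8.70, 8.85, 9.05 and 9.24 at 1 to 7 h and 10.23 at 24 h, against 9.96 and 8.98 in the controls. Its slope of 0.079 ± 0.026 missed the threshold (adjusted p = 0.0529). FOXM1 lay below the 24 h control up to 5 h and above it at 6 and 7 h. CDCA3 lay above that control at 1 h, below it at 2 and 3 h, and above it from 4 h on.

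Of the 18 rising slopes, 11 passed without each of the 7 arrays in turn: BUB1B, CDC20, MAD2L1, CCNA2, PLK1, CCNB1, UBE2C, SPAG5, BIRC5, CCNF and CDCA8. The other 7 and both falls lost the call without at least 1 array.

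As 2 windows rather than a line, hours 4 to 7 against hours 1 to 3 gave 0 rises and 1 fall, CDC25B, among the 41 genes, where 12.2% of all genes rose and 5.18% fell. The median difference was 0.23, and 8 genes were higher and 1 lower at an unadjusted p under 0.05 (22.7% and 13.3% of all genes). In 14 genes all 4 later arrays lay above all 3 earlier ones, against 22.6% of all genes, and in CDC25B and TOP2A all 4 lay below, against 12.8%. The fit shares its spread with the 2 controls, which were far apart in these genes. With only the 7 treated arrays in the fit 13 genes rose and 1 fell, where 1988 and 898 of all 11865 genes did. In the fit with both controls, none of the 41 passed without the 1, 2, 5 or 6 h array. Of all genes 493, 1, 382 and 306 rose there and 127, 2, 146 and 98 fell.

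Against the controls, the first hours of exposure showed lower levels in nearly all 41 genes, without a call. In hours 1 to 3 against control 40 of 41 genes were lower, with a median of -0.55 against -0.04 over all genes. None rose or fell past the threshold (limma), where 0.843% of all genes rose and 1.12% fell, and 19 were lower at an unadjusted p under 0.05 (15% of all genes). In 14 genes all 3 arrays lay below both controls, against 19.8% of all genes. CEP55 was nearest to the threshold, at -0.50 ± 0.12 (SE, 3 and 2 arrays, adjusted p = 0.0626), followed by CENPA at -0.44 ± 0.13 and BIRC5 at -0.91 ± 0.27 (both 0.0923). The size of the difference depended on the choice of control. Against the 0 h control alone the median was -1.04. With the 24 h control in its place it was -0.05. A single control has no replicate, so the spread in these fits, and in those of hours 4 to 7 without 1 control, comes from the treated arrays alone and the lone control is assumed to vary like them.

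In hours 4 to 7 against control 0 genes rose and 4 fell, with 7.6% of all genes rising and 6.19% falling. The 4 were CDC25C at -1.18 ± 0.23 (adjusted p = 0.0134), CDC25B at -0.67 ± 0.13 (0.0139), CEP55 at -0.47 ± 0.11 (0.0242) and NEK2 at -0.62 ± 0.17 (0.0405), each SE over 4 and 2 arrays in limma. They belong to the cyclins and their partners, the mitotic kinases and the cytokinesis genes, and no other member of these groups passed. In each of the 4 genes that fell, and in CENPA and TOP2A, all 4 arrays lay below both controls, 6 of 41 against 19.1% of all genes. No member had all 4 above both controls, where 20.1% of all genes did. The fall of CDC25B also passed without each array in turn, with adjusted p between 0.00358 and 0.0484 over its alternatives. Without the 0 h control CDC25C reached 0.0593, CEP55 0.126 and NEK2 0.233, and the median over the 41 genes turned to 0.18, against -0.81 without the 24 h control and -0.39 with both.

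Hour by hour, the distance to the 0 h control closed only in part. The median difference over the 41 genes was -0.91, -1.14, -1.06, -1.01, -0.86, -0.74 and -0.66 from 1 to 7 h, with 16, 24, 24, 23, 17, 9 and 3 genes lower by 1 or more. Of all genes 1.82%, 3.29%, 2.37%, 1.74%, 1.05%, 1.37% and 1.23% were so. From the 24 h control the median differences were 0.08, -0.12, -0.10, 0.02, 0.11, 0.26 and 0.27. Above that control stood 27, 11, 14, 21, 28, 32 and 35 of the 41 genes, against 54.3%, 39.9%, 49.7%, 51%, 52.6%, 51.3% and 52.6% of all genes. These are differences of single arrays, with no replicate and no test.

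**Figure D4:**
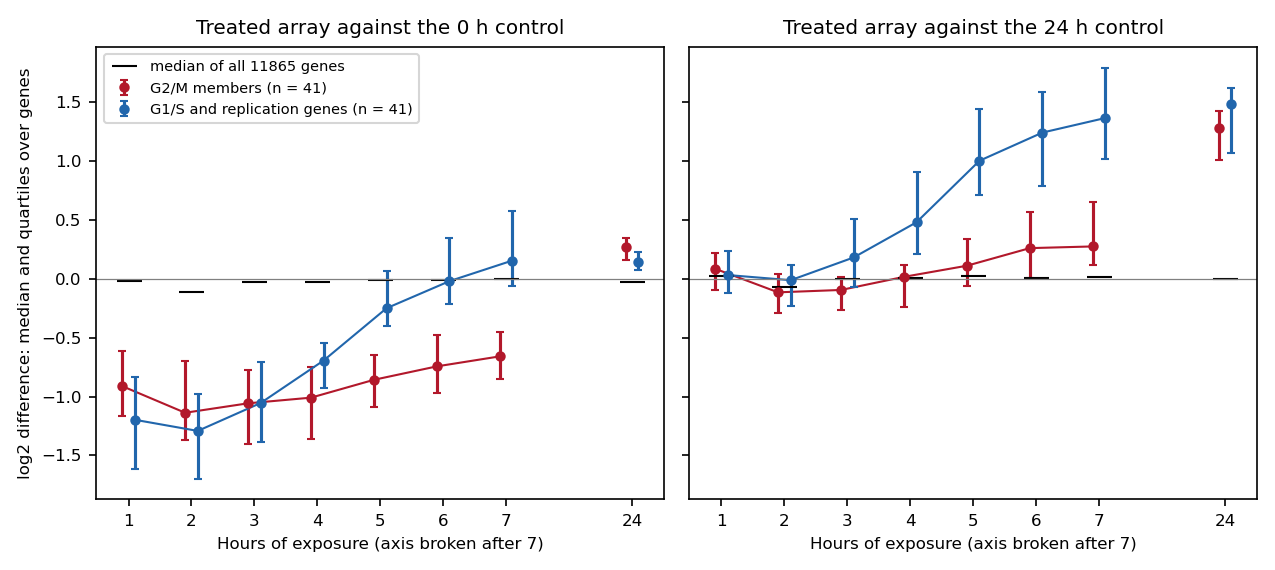
Median log2 difference (points, bars for the quartiles over genes) of the 41 G2/M genes and of 41 G1/S and replication genes on each treated array from the 0 h control (left) and the 24 h control (right), with dashes for the median of all 11865 genes. The G2/M median is lowest at 2 h, at -1.14 and -0.12, and reaches 0.27 and 1.28 at 24 h.

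At 24 h the exposed cells stood well above the control of the same hour. On the treated 24 h array against the 24 h control 40 of 41 genes were higher (49.8% of all genes), with a median of 1.28, and 31 were higher by 1 or more, where 2.24% of all genes were. DLGAP5 differed by 2.22, CDCA3 by 2.11, SPAG5 by 1.84 and MKI67 and BIRC5 by 1.53 each. The medians by role ran from 1.01 for the 4 cytokinesis genes and 1.08 for the cyclins and their partners to 1.37 for the 6 spindle genes and 1.42 for the 3 genes of chromosome structure, and 1.68 for FOXM1 and CDCA3. The genes with the smallest positive differences were CENPA at 0.57, BUB3 at 0.62 and CKS2 at 0.63, and CDC25B differed by -0.40. Both are single arrays, and the difference has no replicate check. Markers of other cell types differed between the same arrays, COL1A2 by -0.92, COL3A1 by -0.69, ACTA2 by -0.54, COL1A1 by -0.03 and the monocyte gene CD14 by -2.05, and their part in the result was not tested.

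Against the 0 h control the same array was higher in 40 genes (43.7% of all genes), with a median of 0.27 and 0 genes higher by 1 or more, where 0.464% of all genes were. HMMR differed most, by 0.58, then DLGAP5 by 0.54, UBE2C by 0.50, CCNB2 by 0.47 and CEP55 by 0.46, and CDC25B by -0.41. The 24 h control against the 0 h control had a median of -0.99, with 20 genes lower by 1 or more (1.48% of all genes). CDCA3 differed there by -1.76, SPAG5 by -1.69, DLGAP5 by -1.68 and MKI67 and ANLN by -1.44 each, and CDC25B by less than 0.01. The treated 24 h array thus lay closer to the 0 h control than to the 24 h control in the median. These 3 differences share arrays and are not independent of each other.

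**Figure D5:**
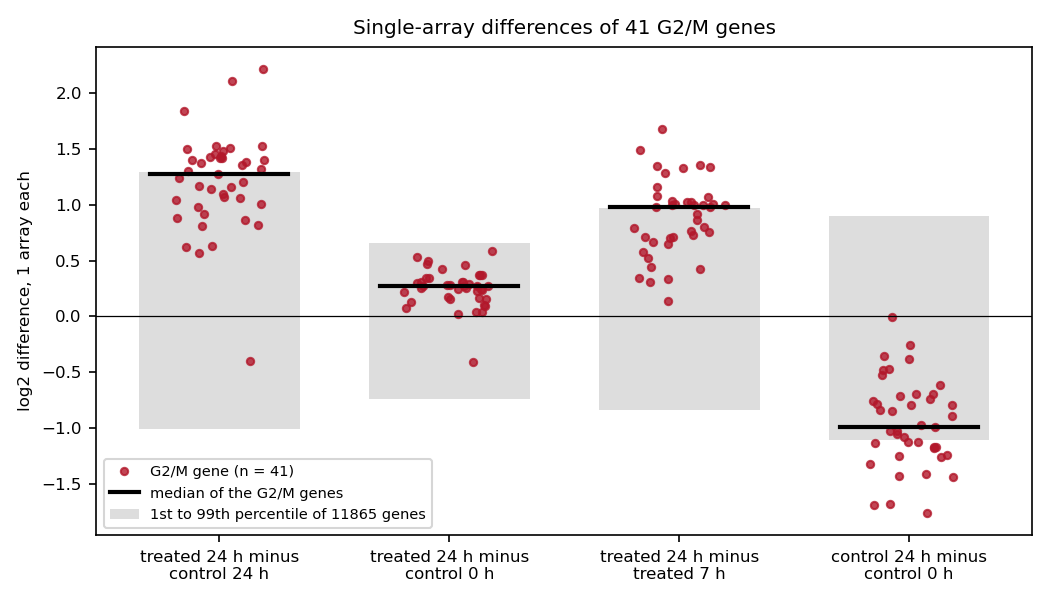
Log2 differences between single arrays for the 41 genes (points, with the median as a bar) beside the 1st to 99th percentile of all 11865 genes (grey). The treated 24 h array lies above the 24 h control and the treated 7 h array in most genes, close above the 0 h control, and the 24 h control lies below the 0 h control.

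Between 7 and 24 h of exposure all 41 genes were higher at the later time (46.5% of all genes), with a median of 0.98 and 16 genes higher by 1 or more (0.826% of all genes). CDC25C differed most, by 1.68, then DLGAP5 by 1.49, CDCA3 and ASPM by 1.35 each and CCNB2 by 1.34. BUB1B differed by 0.58, MAD2L1 by 0.43 and AURKA by 0.30. The difference of the treated 24 h array from the mean of hours 4 to 7 was added after that array had been seen to be the highest, so it describes the same observation again. Its median was 1.10, and the values ran highest in CDC25C at 1.90, CCNB2 at 1.43 and HMMR at 1.23 among the 7 genes past the limma threshold, which also held CEP55, NEK2, CENPA and TOP2A. Of all genes 0.548% passed as higher and 0.851% as lower, and at an unadjusted p under 0.05 36 of the 41 were higher, against 8.04% of all genes. The 24 h side is 1 array, whose spread is assumed and not measured. None of the 7 calls held without each other array in turn, the count being 32 without either control and 0 without the 5 or 6 h array. Over all 10 arrays, treated against control gave 0 rises and 0 falls among the 41 genes in limma, where 0.0506% of all genes rose and 0 fell. At an unadjusted p under 0.05 0 of the 41 were higher or lower, against 5.18% of all genes higher and 8.43% lower. The median there was -0.28, -0.75 with the 0 h control alone and 0.20 with the 24 h control alone.

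Genes of the same pathway outside the 41 were read from lists chosen with earlier results of these data known. Of 12 mitotic kinesins 6 rose over 1 to 7 h and 0 fell, with a median slope of 0.10. Of all genes 16.6% rose and 10.1% fell. KIF20A, the kinesin of the central spindle, measured 8.62, 8.40, 8.41, 8.58, 9.09, 9.33 and 9.55 at 1 to 7 h and 10.87 at 24 h, against 10.71 and 8.69 in the 0 h and 24 h controls (slope 0.191 ± 0.037, adjusted p = 0.00784). Of 36 other mitotic genes tested 22 rose and 0 fell, with a median of 0.11, among them MIS18A, which helps load CENPA (0.149 ± 0.016, adjusted p = 0.00125), and TACC3, a stabiliser of spindle microtubules (0.2 ± 0.025, adjusted p = 0.00172). CDC25A, the third phosphatase of the family, which also acts at the entry to S phase, rose by 0.387 ± 0.040 (adjusted p = 0.001). It measured 7.09, 7.23, 7.91, 8.55, 8.96, 9.09 and 9.11 at 1 to 7 h and 7.83 at 24 h, against 7.73 and 6.71 in the controls, so its highest arrays were those of 5 to 7 h, among the lowest for CDC25B and CDC25C. In hours 4 to 7 against control CDC25A rose by 1.71 ± 0.30 (adjusted p = 0.00936), the 1 rise among the 36 other mitotic genes. It is also on the G1/S list, so no gene on the mitotic lists alone rose there, with 0 of the 12 kinesins. Of all genes 7.6% rose and 6.19% fell. The falls were 1 of the 12 kinesins and 2 of the 36 other mitotic genes, near the share of all genes. The kinesin KIF14 fell by 0.80 ± 0.18 (adjusted p = 0.0214), the kinetochore protein SKA1 by 0.76 ± 0.18 (0.0223) and NUF2, of the NDC80 complex, by 1.12 ± 0.32 (0.0464).

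Most cells express the APC/C subunits through the whole cycle. The list of subunits and the regulators FZR1, FBXO5 and UBE2S gave 4 rises and 2 falls among 16, with a median slope of 0.04. Of all genes 16.6% rose and 10.1% fell. The rises were ANAPC2, FZR1, FBXO5 and UBE2S, and the falls ANAPC13 and ANAPC16. FBXO5, or EMI1, an APC/C inhibitor made from late G1 on, rose by 0.187 ± 0.036 (adjusted p = 0.00733). Of 12 genes of the DREAM and MuvB complexes and B-MYB 6 rose and 1 fell (16.6% and 10.1% of all genes). MYBL2, or B-MYB, measured 8.86, 8.93, 8.75, 8.89, 9.13, 9.39 and 9.58 at 1 to 7 h and 10.55 at 24 h, against 10.27 and 8.86 in the 0 h and 24 h controls (slope 0.123 ± 0.028, adjusted p = 0.0142), and its treated 24 h array was the highest and its 0 h control the second. LIN9, a MuvB subunit, rose by 0.218 ± 0.041 (adjusted p = 0.00714), and RBL2, or p130, which represses these genes in resting cells, fell by 0.089 ± 0.019 (adjusted p = 0.011).

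CDK inhibitors and related brakes gave 0 rises and 8 falls among 12, with a median slope of -0.12. Of all genes 16.6% rose and 10.1% fell. The 4 slopes above 0 did not pass: CDKN1B at 0.117, WEE1 at 0.094, PKMYT1 at 0.051 and CDKN2D at 0.010 (limma adjusted p of 0.143, 0.157, 0.143 and 0.723). GADD45A, a stress-induced inhibitor of CDK1, fell by 0.240 ± 0.017 per hour (adjusted p = 0.000503), GADD45B by 0.198 ± 0.022 (0.00137) and SFN, or 14-3-3 sigma, which holds CDK1 in the cytoplasm, by 0.109 ± 0.016 (0.00272). CDKN1A, or p21, measured 9.81, 9.76, 10.08, 9.78, 9.41, 8.98 and 8.93 at 1 to 7 h and 9.02 at 24 h, against 8.06 and 9.66 in the 0 h and 24 h controls (slope -0.175 ± 0.039, adjusted p = 0.0139). It was lowest in the 0 h control, and lay above the 24 h control at 1 to 4 h and below it from 5 h on. CCNG2, a cyclin associated with growth arrest, fell by 1.37 ± 0.19 in hours 4 to 7 against control (adjusted p = 0.00503). In hours 1 to 3 against control 1 of the 12 rose and 2 fell (0.843% and 1.12% of all genes). GADD45B differed there by 1.05, CDKN1B by -1.24 and CDKN2D by -0.51 (limma adjusted p of 0.0378, 0.0349 and 0.0423).

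Of 41 G1/S and replication genes tested 39 rose and 0 fell over 1 to 7 h (16.6% and 10.1% of all genes), with a median slope of 0.25. Of the 41 G2/M genes 18 rose and 2 fell, with a median of 0.07. CDC25A is counted in the G1/S list as well as among the other mitotic genes above. UHRF1, which brings DNA methylation to newly copied DNA, rose by 0.460 ± 0.031 (adjusted p = 0.000444), RRM2, a subunit of ribonucleotide reductase, by 0.252 ± 0.019 and FEN1, the flap endonuclease, by 0.383 ± 0.029 (both 0.000503). In hours 4 to 7 against hours 1 to 3 the count was 25 rises of 41 with a median of 0.94, and at 24 h against 7 h of exposure the median was -0.14, where that of the G2/M genes was 0.98. No test of the difference between the lists was run.

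Of the 41 genes 23 had several probe sets, and 79 of the 85 were above the 40th percentile of all probe sets tested singly. Among those 79, the sign of the slope over 1 to 7 h differed within 8 genes: ASPM, BIRC5, BUB1, CCNB2, CENPF, ECT2, NEK2 and NUSAP1. For BIRC5 the 3 brighter probe sets had slopes of 0.127, 0.143 and 0.094 and the other -0.043. For the treated 24 h array against the 24 h control the sign differed only within CCNB2, between its bright probe set at 1.5 and a dim one at -0.17.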

How the data were processed

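The authors deposited log2 intensities made with RMA, per the submitters' processing notes, and the version is not given in the sources used here. The full table of 54675 probe sets was used. A filtered table of 7622, with log2 values equal to it within 5e-09, was an alternative. Probe sets with 1 symbol in the platform annotation numbered 41097, those with several 1801 and those with none 11777. A gene was represented by its brightest probe set over the 10 arrays, and 11865 genes at or above the 40th percentile of mean level were tested. Models were fitted with limma (3.58.1, R 4.3.3), two-sided, with Benjamini-Hochberg adjustment over all genes tested and a threshold of 0.05. Both windows and their comparisons with control shared 1 fit of 9 arrays, which leaves out the treated 24 h array. The slope used 7 treated arrays and treated against control all 10. The comparison of treated 24 h with hours 4 to 7 was added after the values were seen. Single-array differences have no test and were counted at 1 log2 unit. Errors are standard errors, and the number of arrays limits precision. The fits were tested on simulated data. The 41 genes and all lists were chosen with earlier results of these data known. Values on every array are given for the members among the 3 of each role with the smallest p in any test and the 5 with the largest difference in each single-array comparison. CDC25B and NEK2 were added after their values were seen. From each other list the 3 genes with the smallest p in a test, and CDKN1A, MYBL2 and KIF20A, could be named. Others are named only to complete a count or to describe a list. Tables and plots were made in Python 3.11.15 (pandas 2.3.3, numpy 2.4.6, matplotlib 3.10.9).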

Additional observations from a re-analysis of the deposited data

Results flagged for a closer look

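In 8 treated arrays the median of the 41 genes, taken relative to their own means, had its highest value at 24 h with a gap to the next array of 0.6994 of the whole range (Dixon's 95% value for 8 arrays is 0.526). The 24 h array is the only late harvest, and 27 of the 41 genes showed such a gap on their own, with ratios of 0.544 to 0.849. Among hours 4 to 7, ECT2 at 7 h lay apart from the other 3 arrays, with 10.70 at 7 h and 10.55, 10.53 and 10.54 at 4 to 6 h, a gap of 0.9114 of the range (Dixon's value for 4 arrays is 0.829). Chance gives such a gap in about 1 of 20 groups, so 1 among the 41 genes at 4 to 7 h is within what chance gives.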

How the results depend on the processing

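Counts of members past the threshold depended mainly on which control was used and on single arrays, and the cause was not tested. For hours 4 to 7 against hours 1 to 3 (1 gene), averaging a gene's probe sets, testing probe sets singly and the trended robust prior gave 2 each, probe sets without an x or s suffix 0, the authors' filtered values 4 and the 7 treated arrays alone 14. Leaving out 1 array gave 0 (without 1, 2, 5 or 6 h) to 14 (without either control). For hours 1 to 3 against control (0 genes), the mean of probe sets gave 1 and the 0 h control alone 37, and leaving out 1 array gave 0 to 37. For hours 4 to 7 against control (4 genes), the filtered table and the probe sets without such a suffix gave 2 each, the 0 h control alone 31 and the 24 h control alone 2, and leaving out 1 array gave 2 (without 5 or 6 h or the 0 h control) to 31 (without the 24 h control). For the slope (20 genes), the 0 h control entered as hour 0 gave 2, and leaving out 1 array gave 13 (without 6 h) to 24 (without 1 h). With the 0 h control as hour 0 the slopes turned to -0.00127 for PLK1, -0.00701 for AURKB, -0.0348 for BUB1, -0.0155 for BIRC5, -0.0185 for SPAG5, -0.0101 for PRC1, -0.0283 for ANLN and -0.0312 for CDCA3. The slope of TOP2A was 0.000114 as the mean of its probe sets. For treated 24 h against hours 4 to 7 (7 genes), the 8 treated arrays alone gave 32, cyclic loess scaling 14 and no filter 4, and leaving out 1 array gave 0 to 32, with 1 without the 2 or 4 h array. With a size threshold of 0.5 in place of 1, treated 24 h against the 0 h control gave 2 in place of 0, the 24 h control against the 0 h control 35 in place of 20, and treated 24 h against treated 7 h 35 in place of 16. Cyclic loess scaling moved the 2 h array by 0.12 at the median, and turned the split over all genes for hours 4 to 7 against hours 1 to 3 to 1137 higher and 1050 lower, against 1449 and 615 without it. No paired analysis was possible because the labels give no replicate numbers. The labels give 1 array per time point, so no single-array difference has an error.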
